A study of Mus musculus with 10 samples.

Results

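Messenger RNA for the enzymes that make, isomerise and inactivate prostaglandins, and for the prostaglandin E2 receptors Ptger2 and Ptger4, was examined in colon tumors in which the epithelium had or had not lost Wls. The list named Ptgs1, Ptgs2, Ptges, Ptges2, Ptges3, Ptgis, Hpgds, Hpgd, Ptger2 and Ptger4. Of these 10 genes 9 were rows of the expression table of 16875 gene names, matched by name, and Ptger2 was not analysed here. Tumors were induced in C57BL/6 mice with the mutagen azoxymethane (AOM) followed by cycles of dextran sulfate sodium (DSS), which inflames the colon, and were macrodissected, so that each library mixed tumor epithelium with stroma and immune cells. The 5 control tumors carried the genotype Wls flox/flox and the 5 Villin-Wls cKO tumors the genotype Villin-Cre ERT2, Wls flox/flox. Wls is the carrier protein that cells need to secrete Wnt ligands. In cKO mice, tamoxifen was given once tumors were established. For the sequenced tumors, a figure legend of the study gives the longer of its intervals between tamoxifen and collection. Villin-Cre ERT2 recombines in intestinal epithelium, so that the stroma of these tumors kept its floxed Wls alleles. The controls were, by the figure legend of the study, tumors without tamoxifen unless stated otherwise, and a tamoxifen effect cannot be told apart from the genotype. The number of mice was not stated, and n counts tumors, so that p-values measure the spread between tumors that may share a mouse.

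Prostaglandins are short-lived lipid signals made from arachidonic acid, which phospholipase A2 enzymes release from membranes. The cyclooxygenases Ptgs1 (COX-1, present in many resting tissues) and Ptgs2 (COX-2, induced by inflammation and growth signals) turn arachidonic acid into prostaglandin H2, which terminal synthases turn into prostaglandin E2, prostaglandin D2 or prostacyclin. The dehydrogenase Hpgd inactivates prostaglandin E2 inside cells, and is known in the colon as an enzyme of mature epithelium that is often low in tumors. Prostaglandin E2 acts on its neighbours through receptors that include Ptger2 and Ptger4, and COX-2 is a known drug target in colorectal neoplasia.

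Transcript levels are given as FPKM, which counts sequenced fragments per kilobase of a transcript in every 1000000 mapped, and can be compared between genes because it is scaled to length. Depth was unknown, since no counts were at hand, and the FPKM of a tumor summed to between 1207700 and 1533900. Changes are differences of mean log2(FPKM + 1), cKO minus control, from a limma fit over all 16757 genes with a mean of at least 0.5 FPKM. A gene is said to have risen or fallen when its Benjamini-Hochberg adjusted p was under 0.05. The pseudocount of 1 makes the change of a gene of low level smaller than its ratio. Wls itself was at 72.9 ± 7.06 FPKM (SD, n = 5) in control and at 6.37 ± 4.89 FPKM in cKO tumors, a log2 change of -3.59 (SE 0.39, adjusted p = 0.000337), with 11.6 and 11.8 FPKM in cKO tumors 2 and 3 and at most 3.61 FPKM in the other cKO tumors. The same cKO tumors 2 and 3 held 469.5 and 669 FPKM of the squamous keratin Krt5, against at most 0.315 FPKM in any other tumor, and results for which their removal matters are given with it. Sex differed too. The X-inactivation transcript Xist was between 439 and 701 FPKM in cKO and at most 0.420 FPKM in control tumors, and the Y-linked Eif2s3y was between 30.4 and 46.6 FPKM in control and at most 0.138 FPKM in cKO tumors. Every control library thus read as male and every cKO library as female, and genotype and sex cannot be told apart in any comparison below.

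Among the prostaglandin genes the clearest differences were in Hpgds and Hpgd, whose means were lower in Villin-Wls cKO tumors, while the mean levels of the prostaglandin E synthases and of Ptger4 lay close together in both genotypes. Only Hpgds passed the test. It was 8.26 ± 3.44 FPKM in control and 3.44 ± 1.20 FPKM in cKO tumors. Of the 9 genes tested 1 fell and 0 rose, against 4.75% and 6.12% of all genes tested (10.9% in either direction). In none of the 9 were the genotypes free of overlap, which 10.1% of all genes were, 4.76% with cKO tumors lower. The split of all calls, 1026 higher and 796 lower, moved to 1385 higher and 412 lower under a common FPKM sum for all tumors, and to 893 higher and 1125 lower after quantile normalization. The median change over the 9 genes was 0.0048, with 5 genes above 0 and 4 below, beside a median of 0.0073 over all genes tested. The common sum shifted the median of all genes to 0.097, and a small change in either direction was not read.

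**Figure D1:**
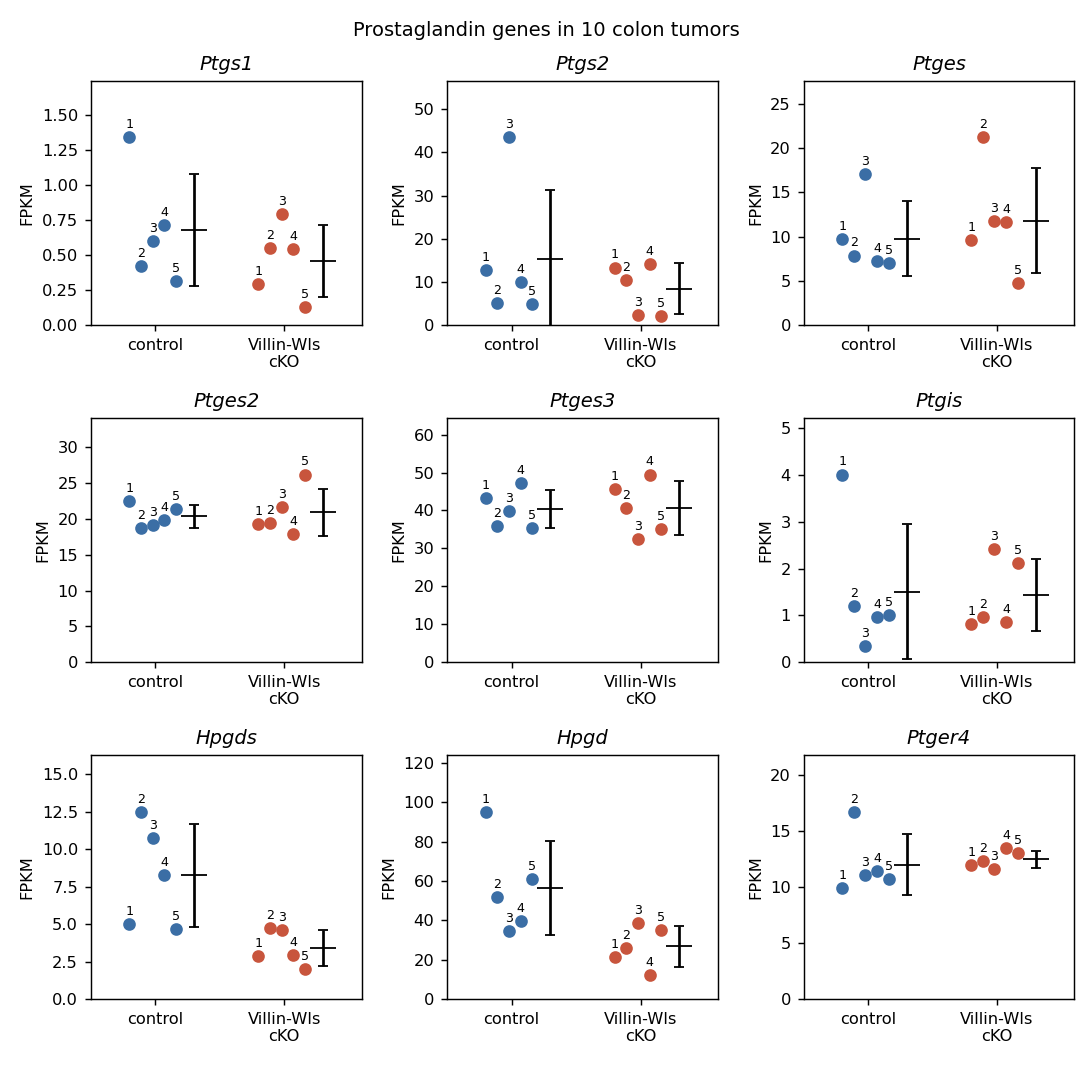
FPKM of 9 prostaglandin genes in each of 5 control (blue) and 5 Villin-Wls cKO (red) colon tumors, numbered by replicate, on a linear axis from 0 that differs between panels. Horizontal bars show the mean and vertical bars 1 SD on either side, and the bar of Ptgs2 in controls is cut at 0. Hpgds and Hpgd sit lower in cKO tumors, and Ptgs2 spreads from 2.01 to 43.5 FPKM.

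By level, Hpgd led in control tumors at a mean of 56.5 FPKM, followed by Ptges3 at 40.4, Ptges2 at 20.3, Ptgs2 at 15.3, Ptger4 at 12.0, Ptges at 9.78, Hpgds at 8.26, Ptgis at 1.51 and Ptgs1 at 0.680 FPKM. Neighbours in this order mostly overlapped from tumor to tumor. Hpgd was above Ptges3 in 3 of 5 control tumors and Ptgs2 above Ptger4 in 2 of 5, whereas Ptges3 was above Ptges2, and Hpgds above Ptgis, in all 5. In cKO tumors the mean of Ptges3, 40.7 FPKM, exceeded that of Hpgd, 26.8 FPKM, and Ptges3 was the higher of the pair in 4 of 5 tumors. Below them stood Ptges2 at 20.9, Ptger4 at 12.5, Ptges at 11.8, Ptgs2 at 8.44, Hpgds at 3.44, Ptgis at 1.44 and Ptgs1 at 0.461 FPKM.

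Ptgs2, the inducible cyclooxygenase, had the widest range between tumors of the 9 genes. It stood at 12.8, 5.19, 43.5, 9.94 and 4.89 FPKM in control tumors 1 to 5, and at 13.3, 10.4, 2.36, 14.1 and 2.01 FPKM in cKO tumors 1 to 5. Control tumor 3 was far above the rest, cKO tumors 3 and 5 were the lowest, and the genotypes overlapped. The highest tumor held 21.6 times the lowest, beside 11.3 times for Ptgis, 10.6 times for Ptgs1 and 1.47 times for Ptges2. The range was 8.90-fold among controls and 7.01-fold among cKO tumors. With means of 15.3 ± 16.1 and 8.44 ± 5.87 FPKM, the log2 change of -0.66 had a 95% interval from -2.10 to 0.78 (adjusted p = 0.581). Ptgs1, the constitutive cyclooxygenase, was low, at 1.34, 0.42, 0.60, 0.72 and 0.32 FPKM in controls and 0.29, 0.55, 0.79, 0.54 and 0.13 FPKM in cKO tumors. Its log2 change was -0.19 (95% interval -0.60 to 0.22, adjusted p = 0.572). Ptgs2 mRNA thus exceeded Ptgs1 mRNA in each of the 10 tumors.

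The 250 bases before the RefSeq start of Ptgs2 are shown because the promoter is the part of this inducible gene known to take up inflammatory signals, and those of Hpgd because its enzyme acts against that of Ptgs2 on prostaglandin levels. Both are on the plus strand of GRCm38.p6, 5′ to 3′.

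Ptgs2, chr1:150099781-150100030: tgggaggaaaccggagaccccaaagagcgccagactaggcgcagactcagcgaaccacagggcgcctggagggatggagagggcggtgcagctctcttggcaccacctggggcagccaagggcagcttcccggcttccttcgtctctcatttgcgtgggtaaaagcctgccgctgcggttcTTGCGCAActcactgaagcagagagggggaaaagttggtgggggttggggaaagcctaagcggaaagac

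Hpgd, chr8:56294302-56294551: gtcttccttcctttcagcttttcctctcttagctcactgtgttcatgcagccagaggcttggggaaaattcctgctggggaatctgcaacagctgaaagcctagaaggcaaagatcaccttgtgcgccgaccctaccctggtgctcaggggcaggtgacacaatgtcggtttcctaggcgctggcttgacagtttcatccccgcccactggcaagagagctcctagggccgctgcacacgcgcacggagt

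Capitals mark TTGCGCAA, a C/EBP motif, at 69 to 62 bases before the start of Ptgs2. It is a palindrome, and was added to the search after the sequence had been read. Over 32851 mouse promoters of this length 0.164% held it on either strand. The other motifs searched on both strands were a TATA box (TATAAA, in 12.4% of all promoters), a CCAAT box (33.8%), a cyclic AMP response element core (TGACG, 17.8%), an E-box (CACGTG, 6.02%), a TCF/LEF motif (CTTTGA, 13.8%), a GATA motif (GATAAG, 6.55%) and an NF-kB motif (17.6%). Neither window held any of them. Bases past the annotated start and farther upstream were not searched, so that the absence holds for the printed bases only. The GC content of the window was 61.6% for Ptgs2 and 56.8% for Hpgd, against a median of 52.4%. No binding was measured in these tumors, and a match in letters is not a site.

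The terminal prostaglandin E synthases showed no difference past the threshold. Ptges, the microsomal synthase that is induced together with COX-2, was at 9.69, 7.86, 17.1, 7.26 and 6.96 FPKM in controls and at 9.61, 21.2, 11.8, 11.6 and 4.78 FPKM in cKO tumors. Its highest values were in cKO tumor 2 and control tumor 3, the groups overlapped, and the log2 change was 0.19 (95% interval -0.56 to 0.94, adjusted p = 0.779). Without the 2 squamous cKO tumors the change of Ptges was -0.16. Ptges2, a membrane-associated synthase, was at 20.3 ± 1.54 FPKM in control (18.8 to 22.4) and 20.9 ± 3.25 FPKM in cKO tumors (17.9 to 26.2), a log2 change of 0.030 (interval -0.20 to 0.26, adjusted p = 0.895). Ptges3, the cytosolic synthase also known as the HSP90 co-chaperone p23, was at 40.4 ± 4.99 FPKM (35.5 to 47.2) and 40.7 ± 7.07 FPKM (32.5 to 49.5), a change of 0.0048 (interval -0.27 to 0.28, adjusted p = 0.989). The intervals of Ptges2 and Ptges3 were the narrowest of the list beside that of Ptger4. Ptgis, the prostacyclin synthase of vessel and stromal cells, was at 4.01, 1.21, 0.355, 0.966 and 1.00 FPKM in controls and at 0.812, 0.959, 2.43, 0.860 and 2.13 FPKM in cKO tumors, with control tumor 1 above the rest and a change of 0.052 (interval -0.69 to 0.79, adjusted p = 0.947).

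Hpgds, the hematopoietic prostaglandin D synthase, which is known from mast cells, tuft cells and some macrophages, fell in Villin-Wls cKO tumors. It was at 5.01, 12.5, 10.8, 8.27 and 4.72 FPKM in control tumors 1 to 5, and at 2.89, 4.73, 4.65, 2.93 and 2.00 FPKM in cKO tumors 1 to 5. Of the cKO tumors 4 lay below every control, and cKO tumor 2 was level with control tumor 5. The control mean was 2.40 times the cKO mean, and the log2 change was -1.02 (SE 0.28, 95% interval -1.63 to -0.40, adjusted p = 0.0410). The direction held in each of 23 alternatives, with changes between -1.29 and -0.86, but the call held in only 15 of them. It was lost when tumors were rescaled to the same FPKM sum (-0.89, adjusted p = 0.0644) and when any of control tumors 2, 3 and 4 or cKO tumors 1, 3, 4 and 5 was left out (adjusted p between 0.0510 and 0.0914). Without both squamous cKO tumors it was -1.29 and the call held (adjusted p = 0.0414). Over all alternatives the adjusted p of Hpgds lay between 0.00598 and 0.0914.

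In these mixed tumors, fewer cells of a type and less RNA per cell cannot be told apart, so the markers of the cell types known to carry Hpgds are given beside it. Of the 12 mast cell markers 10 were in the table, and 2 fell, beside 4.75% of all genes tested. These were the mast cell receptor chain Ms4a2 (0.202 to 1.92 FPKM in control and 0.0511 to 0.214 FPKM in cKO tumors) and the transcription factor Gata2 (2.68 to 5.11 and 0.717 to 1.21 FPKM). The changes of 7 of the 10 mast cell markers were below 0 and of 3 above, with a median of -0.41. This count and median take Mcpt1 and Mcpt2, identical at a change of -0.67, as 2 genes. With 1 of them left out the median would lie higher. The mast cell tryptase Tpsb2 was at 2.11 to 7.04 and 0.611 to 2.21 FPKM, with 4 cKO tumors below every control, but did not pass (adjusted p = 0.0870), the chymase Cma1 was at 5.07 to 19.2 and 7.69 to 23.9 FPKM (adjusted p = 0.108), and the protease Cpa3 at 0.242 to 2.71 and 0.197 to 2.09 FPKM (adjusted p = 0.817). The summed level of the list, 36.9 to 53.3 FPKM in control and 35.4 to 58.2 FPKM in cKO tumors, overlapped, and counts Mcpt1 and Mcpt2, which have identical values, once. Of the 8 tuft cell markers in the table, of 12 listed, 0 passed the test, and their sum was 70.6 to 109 FPKM in control and 53.3 to 84.5 FPKM in cKO tumors, with Ltc4s and Gnat3 listed at 0 in at least 1 tumor. Most of this sum was Avil, at 58.8 to 95.7 and 36.8 to 66.9 FPKM (adjusted p = 0.115). The changes of 6 of the 8 tuft cell markers were above 0, with a median of 0.14, and Sh2d6 was at a mean of 2.30 FPKM in control and 5.33 FPKM in cKO tumors (adjusted p = 0.0969). The macrophage marker Cd14 rose, 1 of 11 measured, beside 6.12% of all genes tested, and the sum of the 11 was 426 to 996 and 394 to 717 FPKM. The part of these cells in the fall of Hpgds was not tested.

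Hpgd, the main enzyme of prostaglandin E2 inactivation, had a lower mean in cKO tumors but did not pass the test. It was at 95.2, 51.7, 34.6, 39.9 and 61.0 FPKM in control tumors 1 to 5 and at 21.5, 26.2, 38.9, 12.5 and 35.0 FPKM in cKO tumors 1 to 5. Of the cKO tumors 3 lay below every control, and cKO tumors 3 and 5 lay above the lowest control only. Means of 56.5 ± 24.0 and 26.8 ± 10.6 FPKM gave a 2.10-fold ratio and a log2 change of -1.05 (SE 0.33, 95% interval -1.79 to -0.32, adjusted p = 0.0704). With tumor quality weights (-1.10, adjusted p = 0.0461) and without control tumor 3 (-1.20, adjusted p = 0.0493) it passed, and without both squamous cKO tumors it was -1.28 (adjusted p = 0.0883). Of the 8 pan-epithelial markers 0 passed the test, with a sum of 6184 to 8723 FPKM in control and 7527 to 9531 FPKM in cKO tumors. The changes of all 8 were above 0, with a median of 0.22. Those of all 9 measured colonocyte markers were above 0 too, with a median of 1.02. The colonocyte sum was 4367 to 7876 and 5923 to 14033 FPKM, most of it Lypd8, at 3811 to 7147 and 4849 to 12000 FPKM, which did not pass. Krt20 and Ceacam1, 2 of the 9, rose. Of all genes tested, 6.12% rose. Of the 8 goblet cell markers 4 rose (Muc2, Agr2, Spink4 and Spdef) and 4 did not pass. The changes of 7 of the 8 were above 0, with a median of 1.46. Only Clca1, at means of 141 and 128 FPKM, had a change below 0. The sum of the 8 was 2679 to 12233 FPKM in control and 23182 to 28643 FPKM in cKO tumors, most of it Spink4, at 1918 to 9586 and 19568 to 24052 FPKM. Their part in the level of Hpgd was not tested.

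**Figure D2:**
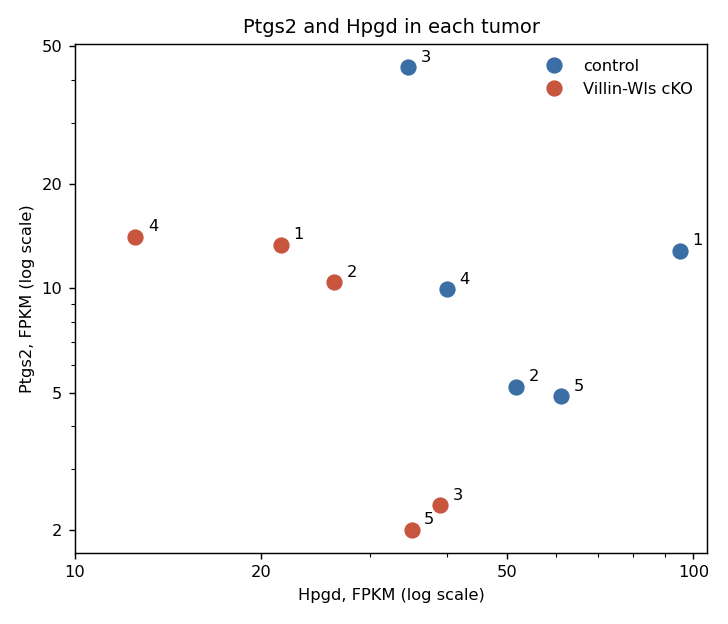
Ptgs2 against Hpgd, both in FPKM on log axes, in 5 control (blue) and 5 Villin-Wls cKO (red) tumors numbered by replicate. Control tumor 3 is alone at high Ptgs2, cKO tumors 3 and 5 are low in Ptgs2, and cKO tumors 1, 2 and 4 pair 10.4 to 14.1 FPKM of Ptgs2 with the lowest Hpgd.

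Set against each other, the prostaglandin-forming Ptgs2 and the prostaglandin-inactivating Hpgd gave a ratio of FPKM that spread widely within each genotype. The ratio was 0.135, 0.10, 1.26, 0.249 and 0.0801 in control tumors 1 to 5, and 0.620, 0.397, 0.0606, 1.12 and 0.0574 in cKO tumors 1 to 5. Ptgs2 exceeded Hpgd in control tumor 3 and in cKO tumor 4 and in no other tumor. The median ratio was 0.135 in control and 0.397 in cKO tumors, and the ranges overlapped almost fully.

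Ptger4, the EP4 receptor through which prostaglandin E2 raises cyclic AMP, was among the steadiest genes of the list. It was at 9.95, 16.7, 11.1, 11.5 and 10.7 FPKM in controls and at 12.0, 12.4, 11.6, 13.5 and 13.0 FPKM in cKO tumors. Only control tumor 2 stood apart, above all others. The log2 change was 0.073 (95% interval -0.20 to 0.35, adjusted p = 0.769). The gene overlaps the protein-coding Ttc33 on the other strand, and whether quantification used strand was not stated, so that reads of the pair may be shared.

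Positions are those of the GENCODE M21 annotation of GRCm38. Ptgs2 lies at chr1:150100031-150108227 and Hpgd at chr8:56294585-56321043, both on the plus strand, and Hpgds at chr6:65117293-65144908 and Ptger4 at chr15:5206661-5244187, both on the minus strand. Ptgs1, Ptges, Ptges2 and Ptgis all lie on chromosome 2, the first at chr2:36230426-36252272 and Ptges at chr2:30889471-30929863. No gene of the list shared all its values with another name of the table, which happens where the authors' processing joined neighbouring genes into 1 locus. Of genes named outside the list, Il11, Fosl1 and Ceacam1 each did so with 1 other name, and Xist, Mcpt1 and Mcpt2 with 2. The values of these genes may be those of a joined locus.

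Genes that are known to be induced beside Ptgs2, namely inflammatory cytokines, NF-kB targets and immediate early genes, were read from a list of 12. Control tumor 3, the tumor with the most Ptgs2, was the highest control for 11 of the 12 and the highest of all 10 tumors for 6. For the other, Fosl1, it was the lowest control, at 11.4 FPKM against 13.1 to 26.0 FPKM. How often it was the highest control over all genes was not counted. Control tumor 3 held 86.2 FPKM of Il1b, 4.21 FPKM of Il6, 52.8 FPKM of Il11 and 156 FPKM of Fos. At the other end, cKO tumors 3 and 5, lowest in Ptgs2, were the 2 lowest cKO tumors for 7 of the 12. The exceptions were Tnf, Nfkbia, Tnfaip3, Fos and Fosl1. For Fosl1 they were the 2 highest cKO tumors, at 14.5 and 15.4 FPKM, and for Fos cKO tumor 5 was the highest, at 50.5 FPKM. How often this pair was the lowest over all genes was not counted either. Between genotypes 2 of the 12 rose and 0 fell, beside 6.12% and 4.75% of all genes tested. The NF-kB feedback inhibitor Tnfaip3 went from 11.7 ± 2.26 to 22.0 ± 3.27 FPKM (log2 change 0.85, SE 0.14, adjusted p = 0.0033), with every cKO tumor above every control, and held in all 23 alternatives. Nfkbia, with the highest mean of the 12 over the 10 tumors, was at 55.5 ± 5.19 and 65.2 ± 5.84 FPKM and did not pass (log2 change 0.23, adjusted p = 0.113). The cytokine Il1a went from 4.51 ± 1.84 to 9.36 ± 3.65 FPKM (0.90, SE 0.26, adjusted p = 0.0492) and held in 12 of 23. Its call was lost without any of control tumors 1, 2, 4 and 5 or cKO tumors 1 to 4 (adjusted p between 0.0688 and 0.111), and without both squamous tumors (adjusted p = 0.103). Summed markers of cells that can express Ptgs2 and Ptges also varied: the fibroblast list held 1066 FPKM in control tumor 3, against 309 to 743 FPKM in the other controls, and the neutrophil list 775 FPKM, against 227 to 465 FPKM. In cKO tumors the fibroblast sum was 415 to 1216 FPKM and the neutrophil sum 591 to 1241 FPKM. The part of these cells in the level of Ptgs2 was not tested.

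**Figure D3:**
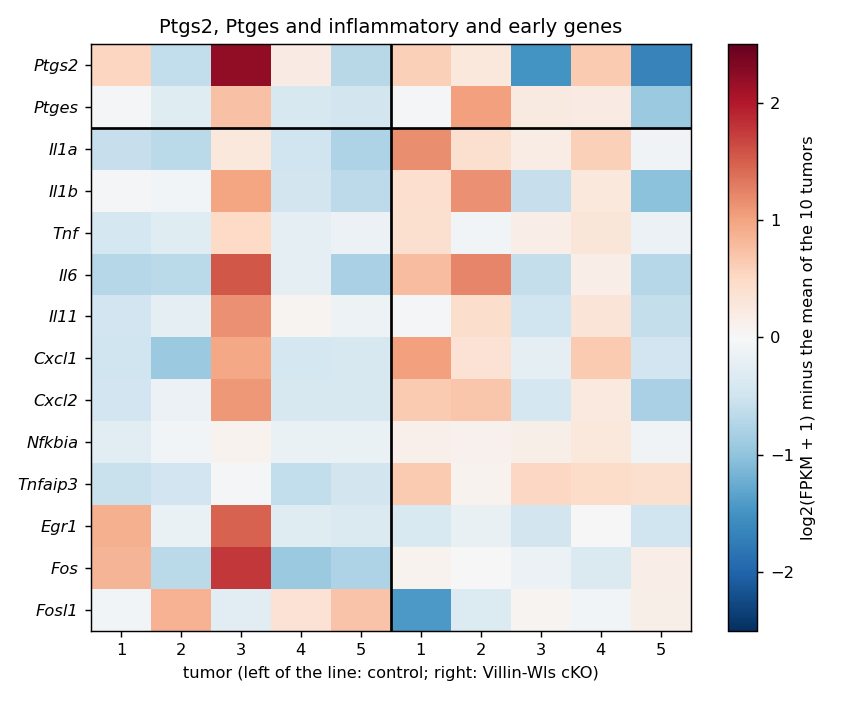
Ptgs2, Ptges and 12 inflammatory and early genes in 10 tumors, each row as log2(FPKM + 1) minus its mean over the tumors (red above, blue below). Control tumor 3 is the reddest column among the controls for 11 of the 12 genes under the line, and Tnfaip3 is higher in every cKO tumor than in any control.

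By correlation of log2(FPKM + 1) over the 10 tumors, of 14119 genes compared, Ptgs2 was most like Cyr61, a matricellular immediate early gene (Pearson's r = 0.92, Spearman's rho = 0.89), and Inhba, a subunit of activin (0.92 and 0.83). Ptges was most like Col15a1, a collagen chain (r = 0.94), and 3110082I17Rik (0.93). The nearest genes to Hpgds were Nudt3 (r = 0.96), which itself fell (log2 change -0.31, adjusted p = 0.0128), and Camk2g (0.93). Those nearest to Hpgd were Klhdc7a (0.95) and Trmu (0.95). For the steadier genes they were Mrpl9 (0.94) and Acot8 (0.90) for Ptges2, Abce1 (0.97) and Mtpn (0.95) for Ptges3, and Chmp7 (0.89) and Chd7 (0.86) for Ptger4, and the nearest to Ptgis was Tcte2 (0.96). These are descriptions: each is the best of many genes over few tumors, and all points share the genotype, sex and library of their tumor.

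Around the listed genes, 51 further gene names of eicosanoid metabolism were read from 5 lists, in which Fam213b and Pla2g16 also stand under their newer names Prxl2b and Plaat3. Of the 39 measured genes, 6 rose, 2 fell and 31 did not pass, with a median change of -0.045, so that 8 of 39 were called against 10.9% of all genes. Upstream of the cyclooxygenases, 3 of 16 phospholipase A2 genes rose and 1 fell, beside 6.12% and 4.75% of all genes tested. Pla2g4a, the cytosolic phospholipase that releases arachidonic acid, was at 12.2, 11.4, 15.2, 13.2 and 12.4 FPKM in controls and at 20.8, 17.2, 22.9, 18.9 and 17.2 FPKM in cKO tumors, with no overlap (log2 change 0.55, SE 0.10, adjusted p = 0.00692). Pla2g16, an adipose-type phospholipase and acyltransferase, went from 14.3 ± 1.24 to 35.0 ± 5.04 FPKM (1.22, SE 0.11, adjusted p = 6.99e-05). The secreted Pla2g2e went from 3.87 ± 1.81 to 10.2 ± 1.32 FPKM (1.29, SE 0.25, adjusted p = 0.00972). These 3 rises held in all 23 alternatives. Pla2g6, a calcium-independent phospholipase, fell from 7.66 ± 0.803 to 5.70 ± 0.406 FPKM (-0.37, SE 0.088, adjusted p = 0.0248). Its call was lost without any of control tumors 1 and 4 or cKO tumors 1, 3 and 5 (adjusted p between 0.0506 and 0.0573) and without both squamous tumors (adjusted p = 0.0928). Pla2g10, with the highest mean of the group over the 10 tumors, stood at 46.8 FPKM in control and 64.6 FPKM in cKO tumors and did not pass (adjusted p = 0.199).

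**Figure D4:**
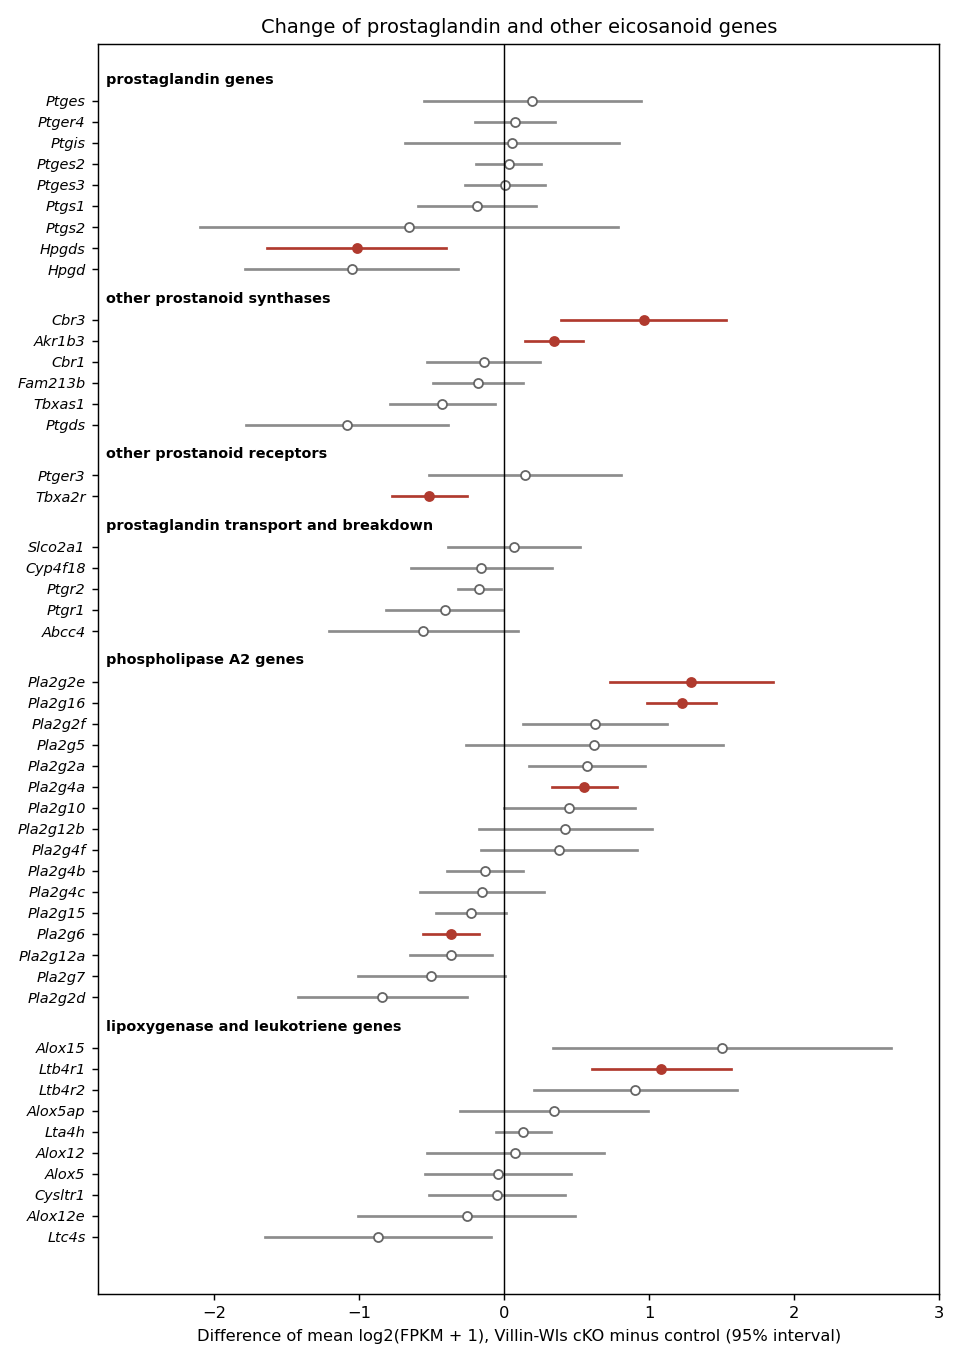
Difference of mean log2(FPKM + 1), Villin-Wls cKO minus control, with 95% intervals from limma for 9 prostaglandin genes and 39 other eicosanoid genes, grouped by role. Filled red points passed an adjusted p under 0.05: Hpgds among the 9, and 8 of the 39.

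Among 6 genes listed as other prostanoid synthases, 2 rose and 0 fell. Of all genes tested, 6.12% rose and 4.75% fell, which also stands beside the lists that follow. Cbr3, a carbonyl reductase, was at 3.52 ± 1.13 FPKM in control and 8.07 ± 3.39 FPKM in cKO tumors (log2 change 0.96, SE 0.26, adjusted p = 0.0374), and 15 of 23 alternatives kept the call, which was lost without any of control tumors 1, 2, 4 and 5 or cKO tumors 3, 4 and 5 (adjusted p between 0.0639 and 0.0843) or without both squamous tumors (adjusted p = 0.105). Akr1b3, an aldose reductase with prostaglandin F synthase activity, was at 11.2 ± 1.33 and 14.5 ± 0.927 FPKM with no overlap (0.34, SE 0.090, adjusted p = 0.0337). It kept the call in 12 of 23 and lost it without any of tumors 2 to 5 of either genotype (adjusted p between 0.0538 and 0.0808) or without both squamous tumors (adjusted p = 0.0959). Ptgds, the other prostaglandin D synthase, was at 3.34 ± 1.56 FPKM in control and 1.03 ± 0.582 FPKM in cKO tumors, with every cKO tumor below every control, and did not pass (-1.08, adjusted p = 0.0518). Cbr1, the most abundant, was at 74.9 and 69.5 FPKM (adjusted p = 0.668). Of 2 other prostanoid receptors in the table, the thromboxane receptor Tbxa2r fell from 0.832 ± 0.110 to 0.286 ± 0.153 FPKM, with no overlap (-0.52, SE 0.12, adjusted p = 0.0181), and Ptger3 was at 0.673 and 0.871 FPKM (adjusted p = 0.815). None of 5 transport and breakdown genes passed in limma. The highest of them, the exporter Abcc4, was at 51.1 ± 31.8 FPKM in controls, with 106.7 FPKM in control tumor 1, and at 30.7 ± 3.56 FPKM in cKO tumors (adjusted p = 0.266). On the lipoxygenase side, 1 of 10 genes rose, the leukotriene B4 receptor Ltb4r1, at 0.703 ± 0.333 and 2.68 ± 1.11 FPKM with no overlap (1.08, SE 0.22, adjusted p = 0.0106). Lta4h, which makes leukotriene B4, was at 81.7 and 89.9 FPKM (adjusted p = 0.362).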

How the data were processed

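Stranded mRNA libraries of 5 control and 5 Villin-Wls cKO tumors were sequenced. Per the labels and methods, the authors used FastQC for read quality, TopHat2 2.1.1 for alignment to GRCm38.p5, and Cufflinks 2.2.1 and Cuffdiff for quantification. The deposited values are FPKM per gene name and tumor. The annotation release and the use of strand were not stated. All columns were assigned to a tumor by label.

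The members and all gene lists were chosen with earlier results of these data known. By a fixed rule the text names every listed prostaglandin gene, genes of the other pathway lists that passed and the most abundant of each, Wls, Xist and Eif2s3y as label checks, and the 2 genes most correlated with each listed gene at a mean of at least 1 FPKM. For Ptgis 1 of these genes is not reported here. Krt5, the cytokines, Fos and Fosl1 without a call, Ptgds and the marker genes with values were chosen after their values were seen. Limma 3.58.1 (R 4.3.3) was run on log2(FPKM + 1), genotype as the only term, eBayes with trend, two-sided, Benjamini-Hochberg adjusted over 16757 genes with a mean of at least 0.5 FPKM. On simulated data of these genes, 78 of 100 changes of 1 log2 unit and 90 of 100 of 2 units were recovered, with 8 unchanged genes called. The simulated tumors were independent, with normal values at the spread of each gene, and held no sex difference or shared mouse. Recovery was taken over genes of any spread, and not for genes as variable as Ptgs2. Summaries were made in Python 3.11.15 (scipy 1.17.1, pandas 2.3.3, numpy 2.4.6) and drawn with matplotlib 3.10.9. Promoters were from RefSeq on GRCm38.p6, which held 9 of the 10 genes, and positions from GENCODE M21, both sharing the chromosome coordinates of the authors' build. Depth was unknown, and precision rests on the 5 tumors of a group. Same-numbered tumors did not deviate together, so that no pairing was used.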

Additional observations from a re-analysis of the deposited data

Results flagged for a closer look

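Single tumors stood far from the rest of their group in 7 of 50 groups tested (25 named genes in each genotype), by a gap beyond Dixon's 95% critical value for 5 samples. The gaps were taken on FPKM, not on its logarithm. The chance rate of about 1 in 20 holds for normally distributed values, so that the count of flags cannot be read against it. All 7 were control tumors. Control tumor 3 was the high one for Ptgs2 (43.48 FPKM, the next control at 12.83), for Ptges (17.12, next 9.692), for Il1a (7.751, next 4.127) and for Tnfaip3 (15.69, next 11.39). Control tumor 1 was high for Ptgis (4.011 FPKM, next 1.208) and for Abcc4 (106.7, next 48.13). Control tumor 2 was high for Ptger4 (16.72 FPKM, next 11.47). Without control tumor 3 the call of Hpgds was lost and Hpgd passed, with a log2 change of -1.20 (limma, adjusted p = 0.0493).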

How the results depend on the processing

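Of 595 values for 25 genes under the alternatives, 527 kept their call and, but for the ratio of Ptgis below, their direction, 47 lost the call, 2 gained it, 16 more changed sign and 3 moved beyond the replicate spread. The count of prostaglandin genes called, 1, became 0 with tumors rescaled to the same FPKM sum, 2 with tumor quality weights, and 0 to 1 when single tumors were left out. The 8 other eicosanoid genes called became 5 with a replicate block, and 5 to 9 with single tumors left out. The 1822 calls among all genes became 1104 (660 higher) without the 2 squamous tumors and 1228 to 1984 with single tumors left out. The replicate numbers, which do not pair the tumors (correlations of same-numbered tumors 0.064, -0.087, 0.063, 0.10 and 0.16), gave 1627 calls as a block and 1 prostaglandin gene. Sign changes were limited to small changes that passed no test. Under quantile normalization Ptges2 was at -0.0052, Ptges3 at -0.031 and Ptgis at -0.0053. Ptges3 was at -0.0035 after rescaling by median ratios, and without the squamous tumors Ptges was at -0.16 and Ptgis at -0.044. With single tumors left out, Ptges ranged from -0.039 to 0.45, Ptges2 from -0.051 to 0.081, Ptges3 from -0.068 to 0.079, Ptgis from -0.13 to 0.34, and Ptger3 from -0.062 to 0.28. The replicate block ended the calls of Tbxa2r (adjusted p = 0.0533), Akr1b3 (0.0611), Pla2g6 (0.0753) and Il1a (0.0769). That of Pla2g6 was also lost under the common FPKM sum (0.0960), of Akr1b3 under quantile normalization (0.0706) and of Il1a without the variance trend (0.0518). As log2 ratios of mean FPKM, with no pseudocount, Ptgis was at -0.070, Ptgs1 at -0.56, Tbxa2r at -1.54 and Ltb4r1 at 1.93. The causes of the sign changes were not tested. With FPKM and no counts, no counting error can be given for genes near or under 1 FPKM, such as Ptgs1, Ptgis and Tbxa2r.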
